A study of Rattus norvegicus with 21 samples.

Results

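The least methylated stretches of the rat dorsal striatum were the subject here: 250 bp tiles of the genome in which fewer than 1% of all reads, pooled over 21 bisulfite libraries, still showed C at CpGs. A tile was eligible when it lay on chromosomes 1 to 20 and held at least 2 measured CpGs in every library; such tiles are called common tiles. Of 140054 common tiles, 3044 (2.17%) had a pooled level under 1% and form the set described. The pooled level chose the set, so its low value is a description and carries no test.

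All rats were wild-type Sprague Dawley, 120 days old, and the tissue was dorsal striatum, which receives dopamine fibres from the midbrain. The unlesioned saline group had 6 libraries. The lesioned saline group had 8 libraries, from rats given 6-OHDA (6-hydroxydopamine, a toxin of catecholamine neurons) into the left medial forebrain bundle, with 3 weeks of recovery. The lesioned L-DOPA group had 7 libraries, from lesioned rats that received the dopamine precursor L-DOPA at 6 mg/kg daily for 7 days and gave tissue 3 h after the last dose. The labels tie no library to an animal and do not say whether unlesioned tissue came from other rats or from the other hemisphere, so each p-value rests on the spread between libraries, which may be technical. Bulk tissue mixes neurons, glia and vessels, and a level is an average over all of them.

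In vertebrate genomes most CpGs are methylated, and the exceptions gather in CpG islands, dense stretches that often cover promoters. Islands are kept free of methyl groups by proteins that bind unmethylated CpGs and by marks of active or poised chromatin that repel the methyltransferases. Bisulfite turns unmethylated cytosine into uracil, which is read as T, while methylated and hydroxymethylated cytosine stay C. A C read at an unmethylated site can therefore also come from incomplete conversion or a sequencing error. Mitochondrial DNA, largely free of CpG methylation, serves as an internal reference for that background. Tiles this low are commonly dropped from tests because so few of their reads show C.

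Each library listed 978694 to 1291334 CpGs, with a median of 37 to 70 reads per cytosine and at least 10. Total coverage was 5.96e+07 to 1.64e+08 reads, counted once per cytosine. The library numbers fall into 2 runs, called series 1 and series 2 here. Series 1 held 9 libraries, 6 lesioned saline and 3 L-DOPA, and series 2 held 12, with all 6 unlesioned ones, so lesion and series are partly confounded. The labels do not say what these runs mean. Positions are those of rn5; no sequence or gene annotation of that build was used here.

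The tiles under 1% were the lower tail of a continuous range. Only 22 lay under 0.25%, 113 lay between 0.25% and 0.5%, 572 between 0.5% and 0.75%, and 2337 between 0.75% and 1%. Counts went on rising above the limit, with 5596 tiles at 1% to under 1.25% and 7426 at 1.25% to under 1.5%. The median level of the set was 0.876%. Tiles just inside the limit were chr1:115378251-115378500 with 7 CpGs and 9299 reads at 0.999951%, chr3:97912251-97912500 with 10 CpGs and 17802 reads at 0.999918%, and chr6:145338251-145338500 with 22 CpGs and 30113 reads at 0.999536%. Just outside lay chr4:183042501-183042750 with 9 CpGs and 10698 reads at 1.00004%, chr16:47836751-47837000 with 24 CpGs and 68596 reads at 1.00004%, and chr8:75083501-75083750 with 15 CpGs and 27503 reads at 1.00005%. The levels use the deposited percents, rounded to 2 decimals, and on either side these tiles lay within 1 read of the limit. Which side they fall on can turn on that rounding. By whole reads with C, chr1:115378251-115378500 (93 of 9299) lies over 1% and chr8:75083501-75083750 (275 of 27503) under it.

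The tiles under 1% were mostly CpG-rich. They listed a median of 10 CpGs (quartiles 6 and 18, maximum 51), close to the median of 11 in the 39796 tiles of 1% to under 5% and above the median of 4 in all common tiles at 1% or more. The share of common tiles that fell under 1% rose with CpG number. It was 0.565% among tiles of 2 or 3 CpGs, 1.58% at 4 to 7, 4.67% at 8 to 14, 5.79% at 15 to 24 and 9.59% at 25 or more. Among tiles already under 5% the same share was flatter: 6.48%, 7.58%, 6.94%, 6.22% and 9.93%. The 3 tiles with the most CpGs were chr14:20950001-20950250 with 51 CpGs at 0.822%, chr12:49156501-49156750 with 48 at 0.950% and chr8:71950501-71950750 with 46 at 0.914%. In the densest, with 2824 to 10847 reads per library, the lowest library read 0.473%, the median 0.795% and the highest 1.32%. The mean was 0.804% ± 0.228 (SD, n = 6) for unlesioned saline, 0.792% ± 0.261 (n = 8) for lesioned saline and 0.914% ± 0.304 (n = 7) under L-DOPA.

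**Figure D1:**
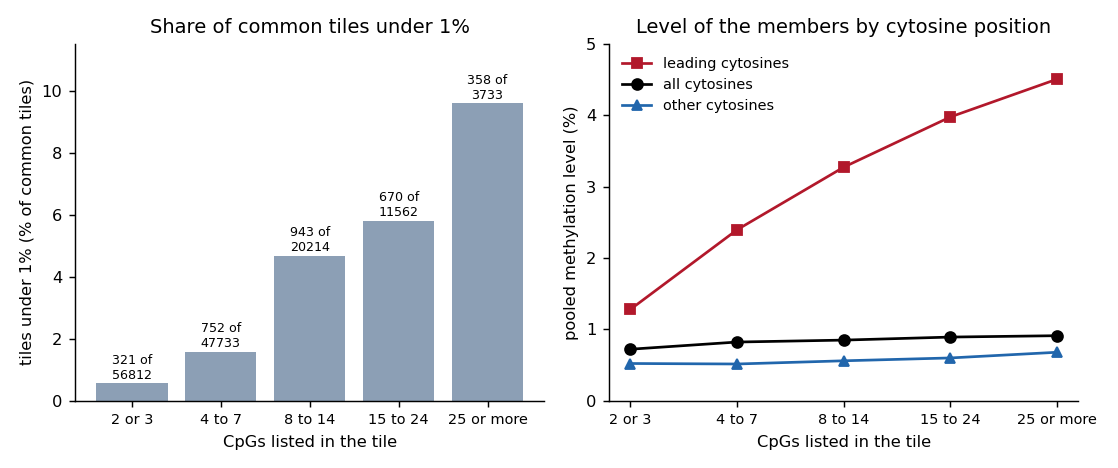
Left, the percent of common tiles with a pooled level under 1%, by CpGs listed in the tile, with the counts above each bar. Right, the pooled level (%) of those tiles by CpG number, for all cytosines, for leading cytosines (the first listed on their strand, with none in the 49 bases before) and for the other cytosines; the leading ones read 1.28% to 4.51% and the others 0.514% to 0.679%, while the rule bounds the level of leading cytosines more tightly where they hold more of the reads.

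The very lowest values came from small tiles with few reads. The 135 tiles under 0.5% had a median of 4 CpGs and 155 reads per library, against 10 CpGs and 706 reads for the whole set. In 7 tiles no library had a read with C. The deepest of them were chr14:114113251-114113500 (0 of 2942 reads, which allows a level of up to 0.102%), chr10:93056751-93057000 (0 of 2735, up to 0.110%) and chr4:7431251-7431500 (0 of 2084, up to 0.144%). Each of the 3 held 2 CpGs. In these 3 tiles 49.9% to 50% of the counts lay on the leading cytosine (defined below), and a read over both CpGs is counted at each. Limits from counts of 0 treat every count as an independent molecule. Reads copied by PCR are not independent molecules either, so the true limits may be higher.

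These tiles usually sat inside wider stretches of low methylation. Of the 3044, 2903 had another common tile within 1000 bp, and in 84.3% of those every such neighbour was under 5%. The share was 81.1% for tiles of 1% to under 2% and 65.5% for tiles of 2% to under 5%. A neighbour at 20% or more stood within 1000 bp of 172 tiles (5.92%), and 7 tiles had only neighbours at 50% or more. The 22 tiles under 0.25% stood apart in place as in size: 10 of them (45.5%) had no common tile within 1000 bp, against 3.94% of the tiles of 0.75% to under 1%. Long runs were rare. Of the tiles under 1%, 2718 had no adjoining tile under 1%, 292 formed 146 pairs, 30 formed 10 runs of 3, and 4 formed 1 run. That longest run, chr1:274792251-274793250, held 85 CpGs and read 0.806% pooled, from 0.547% to 1.24% over libraries. The next in the list of runs were chr1:52103751-52104500 with 54 CpGs at 0.746% and chr1:74814001-74814750 with 47 CpGs at 0.933%.

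The set was spread over the genome. On each autosome between 1.75% (chromosome 19) and 2.51% (chromosome 1) of the common tiles fell under 1%. Set against tiles under 5% only, the range was 6.15% (chromosome 14) to 8.48% (chromosome 16). The X chromosome, which the rule left out, had 71 of 2056 common tiles under 1% (3.45%), or 7.20% of its tiles under 5%.

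The set had more reads per tile than all other common tiles together, and fewer than tiles of 1% to under 5%. Its median reads per tile ran from 376.5 to 1072.5 over libraries, against 152 to 408 in all other common tiles. The set was higher in 21 of 21 libraries, by a mean log2 ratio of 1.33 ± 0.27 (SD, n = 21; two-sided sign permutation test, p = 1e-05, the smallest that 100000 resamples can give), or 2.52-fold. A read is counted once per cytosine, so reads per tile rise with CpG number. The set listed a median of 10 CpGs against 4 in the other common tiles, and the test per tile does not separate depth from this. Per cytosine the log2 ratio was 0.07 (sign permutation p = 0.137), a difference that did not pass. Against tiles of 1% to under 5% the set had fewer reads per tile, 0.691-fold, in all 21 libraries, and a median of 69.0 reads per CpG against 99.8.

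A tile chosen as under 1% in 1 series was mostly under 2% in the other, and under 1% in 41.5% or 51.7% of cases by direction. Tiles chosen as under 1% in the 9 libraries of series 1 numbered 4335 and read 0.854% there. In the 12 libraries of series 2, which had no part in that choice, the same tiles read 1.06%. Of them, 41.5% were again under 1%, against 2.48% of all common tiles, and 95.4% were under 2%; 1 exceeded 5%, at 6.16%. The reverse choice gave 3477 tiles at 0.865% in series 2 and 0.997% in series 1, with 51.7% again under 1% against 3.10% of all common tiles. The highest tile there read 6.14%. A total of 1797 tiles were under 1% in both series separately.

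Single libraries strayed further. Only 15 of the 3044 tiles were under 1% in each of the 21 libraries, 869 (28.5%) were under 2% in each, and 2741 (90.0%) under 5% in each. Of the 63924 tile values, 17.5% were exactly 0. All libraries had at least 1 read with C in 1192 tiles. The first 3 of these in genome order were chr1:3523001-3523250 (0.413% to 2.09%, median 0.992%), chr1:3778501-3778750 (0.116% to 2.89%, median 0.668%) and chr1:7017751-7018000 (0.190% to 1.86%, median 0.837%). Zeros fell with CpG number and depth, from 53.9% of the values in tiles of 2 or 3 CpGs to 0.519% in tiles of 25 or more. A level under 1% was thus a property of the pooled reads and seldom of each single library.

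The reads with C were not spread evenly along these tiles. On each strand the first listed CpG cytosine of a covered stretch, with no listed cytosine of that strand in the 49 bases before it, is called leading here; this split was made after the data were seen. Reads were 50 bases long. Among cytosines with at least 500 pooled reads, the 3782 leading ones had a median level of 2.99% and the 33320 others 0.494%. Leading cytosines took 9.21% of the reads and 37.1% of the reads with C. Of the 3720 cytosines at 2% or more, 74.2% were leading, against 10.2% of all. Leading exceeded other cytosines in 21 of 21 libraries, at 3.05% to 3.97% against 0.523% to 0.786%, a ratio of 4.41 to 6.74.

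**Figure D2:**
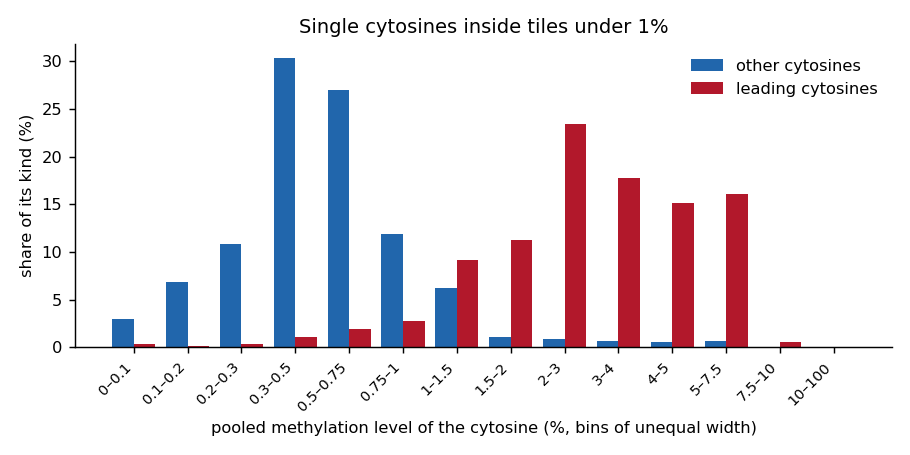
Share (%) of leading and of other cytosines of the tiles under 1% in each class of pooled level (%; classes of unequal width, at least 500 reads per cytosine). The other cytosines peak at 0.3% to 0.5% and the leading ones at 2% to 3%.

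The excess ended within a few bases. Cytosines 1 to 5 bp past a leading one on the same strand had a median of 0.539%, those 6 to 10 bp past it 0.508% and those 41 to 49 bp past it 0.485%. Tiles of 1% to under 5% showed the same step, from 4.73% at leading cytosines to 0.815% at 1 to 5 bp. In tiles above 80% the 2 kinds differed little, at 90.7% for leading and 91.0% for other cytosines, and leading was the higher in 6 of 21 libraries. On the mitochondrial genome the median of single cytosines did not show the step, at 0.590% for 166 leading and 0.647% for 270 other cytosines. Weighted by reads, leading ones there read 2.51% to 3.79% over libraries and others 0.880% to 1.18%; 18 of the 166 reached 2%, the highest at 31.3%. In the 22 tiles under 0.25% leading cytosines read 0.136% and others 0.125%; leading ones held 24.4% of the reads there, so the choice of tiles this low bounds their level. The cause of the step was not tested.

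**Figure D3:**
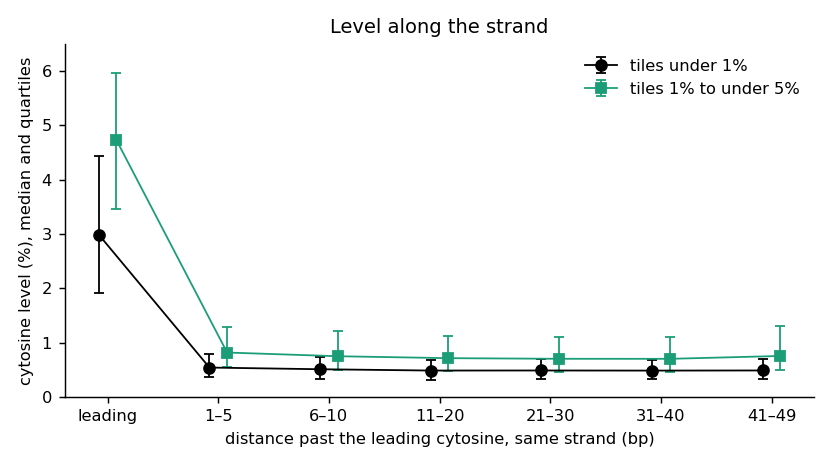
Median pooled level (%) of single cytosines, with quartiles as bars, at leading positions and by distance in bp past them on the same strand, in tiles under 1% and tiles of 1% to under 5%. Both curves drop between the leading position and 1 to 5 bp, to 0.539% and 0.815%.

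The limit of 1% depended on these positions. With leading cytosines left out, 20840 of the 133242 common tiles that still had reads in all libraries (15.6%) were under 1%. They included 3033 of the 3044 and 17507 tiles (44.0%) of those at 1% to under 5%. The median level of the set was then 0.568%, against 1.08% for the tiles of 1% to under 5%. By CpG number, leading cytosines read 1.28% at 2 or 3 CpGs, where they held 26.4% of the reads, and 4.51% at 25 or more, where they held 6.07%. The rule bounds the first value more tightly than the second, so no trend is read from them.

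Single CpGs above the floor were few. Of 31296 CpGs of these tiles read in all 21 libraries, 646 had a pooled level of 5% or more, in 503 tiles, and 2 reached 10%. The highest, at chr18:47930646, read 12.7% on the minus strand, a leading cytosine, with 0 to 22.1% over libraries (median 12.5%), while the rest of its tile read 0.685%. It exceeded the rest of its tile in 20 of 21 libraries. The next was chr1:169535818 at 10.3%, also leading on the minus strand (0 to 26.5%, rest of the tile 0.510%). The CpGs at chr5:148042557 (8.83%, rest 0.606%) and chr4:144519314 (8.26%, rest 0.728%) were not leading, and the one at chr6:20521850 (8.21%, rest 0.795%) was. All 5 were read on 1 strand only. At the other end, 150 of 29705 cytosines with at least 1000 reads had no read with C. The deepest, on the minus strand at chr6:144094869, had 0 of 2806 reads, which allows up to 0.107%, and the cytosine of the same CpG on the plus strand read 0.0957%.

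In every library the tiles under 1% read lower than the mitochondrial genome. Their level over all reads ran from 0.779% (L-DOPA replicate 1) to 1.04% (lesioned saline replicate 4), with a median of 0.876%. In 2 libraries it exceeded 1%, lesioned saline replicates 3 and 4. CpGs of the mitochondrial genome, 206 to 301 per library with 584910 to 2238769 reads, read 1.12% to 1.49%, a difference of −0.597 to −0.277 points. The mitochondrial sites thus differed between libraries. The limit of 1% lies below all these mitochondrial levels, so choosing tiles under it largely sets the order of the set and the mitochondrial genome. The order was also read in libraries without a part in the choice. That takes out sampling noise but not the choice of a low tail, so it is no independent test. Tiles chosen on series 1 read 0.919% to 1.23% in series 2, under the mitochondrial level of the same library in 12 of 12, and tiles chosen on series 2 read 0.860% to 1.26% in series 1, under it in 9 of 9. Without leading cytosines the set was still lower in 21 of 21 libraries, at 0.523% to 0.786% against 0.880% to 1.18%. Leading cytosines alone did not keep this order. They read 3.05% to 3.97% (median 3.61%) in the set against 2.51% to 3.79% (median 3.31%) on the mitochondrial genome. The set was higher in L-DOPA replicate 3 (3.74% against 3.14%) and lower in lesioned saline replicate 3 (3.67% against 3.74%), for example. The tiles of 1% to under 5%, by contrast, read 1.60% to 2.08%, above the mitochondrial range.

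Libraries with a higher mitochondrial level also read higher in the tiles under 1%. Pearson's r over the 21 libraries was 0.603 (permutation p = 0.00395, adjusted over 3 relations 0.00592) and Spearman's rho 0.640 (permutation p = 0.00210, adjusted 0.00315). It was 0.557 (permutation p = 0.0135) without L-DOPA replicate 2 and lesioned saline replicate 6, the farthest from the median. Within series 1 it was 0.664 (n = 9, exact permutation p = 0.0571, adjusted 0.0856) and within series 2 0.674 (n = 12, permutation p = 0.0157, adjusted 0.0236). Without leading cytosines it was 0.445 (permutation p = 0.0419, adjusted 0.0628), which no longer passed. The relation with tiles of 1% to under 5% was closer, at r = 0.882 (permutation p = 1e-05, the smallest possible, adjusted 3e-05) and rho = 0.868 (p = 1e-05 by permutation). That r was 0.956 in series 1 (exact permutation p = 0.000218), 0.779 in series 2 (permutation p = 0.00300) and 0.899 (p = 1e-05 by permutation) without lesioned saline replicate 4 and unlesioned saline replicate 4. All these levels come from the same libraries and share their conversion and read processing. The mitochondrial level also rests on sites that differed between libraries. With the read ratio, a library's median reads in tiles of 15 or more CpGs over those in tiles of 2 or 3, r was −0.00725 (permutation p = 0.976) and rho 0.0805 (permutation p = 0.730). Its r was 0.164 (permutation p = 0.502) without unlesioned saline replicate 1 and L-DOPA replicate 7. It was 0.275 in series 1 (exact permutation p = 0.484) and −0.389 in series 2 (permutation p = 0.212).

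**Figure D4:**
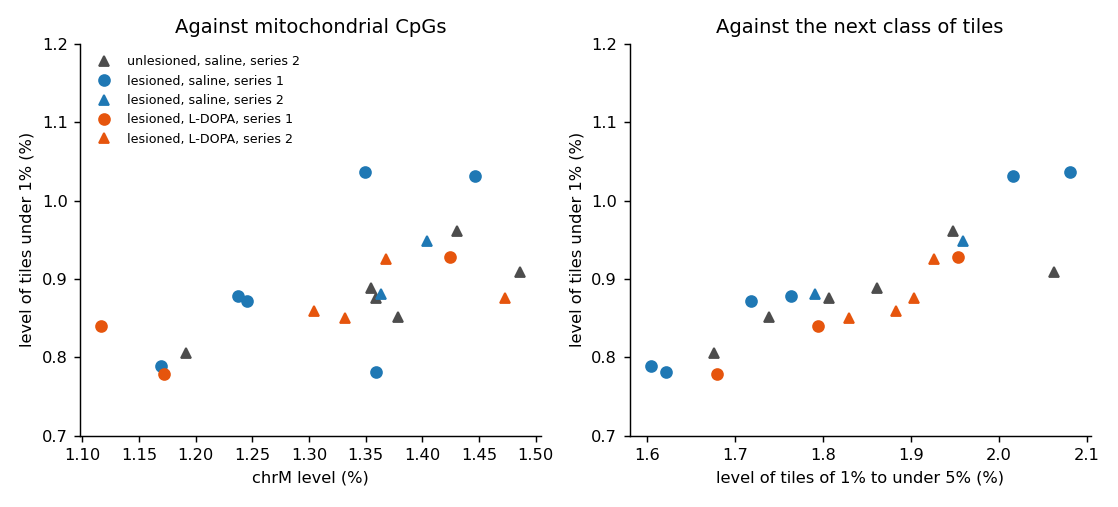
Level (%) of the tiles under 1% in each of 21 libraries against the mitochondrial level (left) and the level of tiles of 1% to under 5% (right); colour marks the group and shape the library series, and the axes do not start at 0. Points rise together in both panels (r = 0.603 and 0.882), and the groups overlap.

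The level of the set did not differ between the groups beyond their spread. Unlesioned saline libraries ran from 0.805% to 0.961% (median 0.882%, mean 0.882% ± 0.0526, SD, n = 6). Lesioned saline ran from 0.781% to 1.04% (median 0.880%, mean 0.902% ± 0.0975, n = 8), and L-DOPA from 0.779% to 0.928% (median 0.859%, mean 0.865% ± 0.0515, n = 7). The 3 ranges overlap, and the lesioned saline range is the widest. L-DOPA minus lesioned saline was −0.0370 points (SE 0.0396, exact two-sided permutation p = 0.390, adjusted over 3 comparisons 0.644). Lesioned minus unlesioned saline was 0.0204 points (SE 0.0406; p = 0.644 by exact permutation, adjusted 0.644), and the difference of L-DOPA from unlesioned saline was −0.0166 points (SE 0.0290, exact permutation p = 0.573, adjusted 0.644). Leaving out 1 library gave −0.0544 to −0.0177 points for the first difference, 0.00107 to 0.0377 for the second and −0.0319 to −0.000816 for the last, and none passed. The values smallest in size of the first and second came without lesioned saline replicate 4, the largest without lesioned saline replicate 1. Without lesioned saline replicate 3 they were −0.0185 and 0.00189. With tiles chosen on the group outside each comparison, which frees the choice from the compared libraries, L-DOPA read 1.05% ± 0.0669 (n = 7) and lesioned saline 1.08% ± 0.142 (n = 8).

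Tile by tile, no tile of the set passed in any comparison. A quasi-binomial model fitted to all 140054 common tiles called 0 of them at an adjusted p under 0.05 in each of the 3 comparisons (background 0%), and limma on log2 odds likewise called 0. At an unadjusted p under 0.05 the quasi-binomial model gave 170 of the 3044 tiles (5.58%) for L-DOPA against lesioned saline, where the background over all common tiles was 3.81%. It gave 128 (4.20%) for lesioned against unlesioned saline, against a background of 3.30%, and 172 (5.65%) for L-DOPA against unlesioned saline, against 6.18%. Limma gave 181 (5.95%, background 3.86%), 163 (5.35%, background 3.54%) and 161 (5.29%, background 4.94%) in the same order. In 2 comparisons the shares in the set lay above the background and in the last one on either side of it by method. The comparisons share groups and are not independent. The median dispersion, where 1 is binomial counting error, was 3.07 in the set and 3.53 in all common tiles.

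The tiles with the smallest p in each direction, none of which passed, show how small these differences are. At chr14:108238751-108239000 (12 CpGs, 320 to 974 reads per library) L-DOPA libraries ran from 0.878% to 2.19% (median 1.41%) and lesioned saline from 0 to 0.978% (median 0.387%). The ranges overlap, and the difference was 1.13 points (SE 0.219, adjusted p = 1.00, quasi-binomial model). At chr1:254763001-254763250 (6 CpGs, 30 to 247 reads) all 7 L-DOPA libraries were at 0, and lesioned saline ran from 0 to 5.13% (median 1.14%), so 0 is shared by both groups. At chr9:64696251-64696500 lesioned saline ran from 0 to 4.78% (median 1.65%) and unlesioned saline from 0 to 0.483% (median 0). At chr3:110574251-110574500 lesioned saline ran from 0 to 0.794% (median 0.280%) and unlesioned saline from 0.392% to 2.66% (median 1.37%), again with overlap. At chr12:42562751-42563000 L-DOPA ran from 0.980% to 1.95% (median 1.18%) and unlesioned saline from 0.537% to 0.968% (median 0.685%). At chr6:144094751-144095000 L-DOPA ran from 0.196% to 0.743% (median 0.609%) and unlesioned saline from 0.917% to 3.18% (median 1.09%). The groups do not overlap at the last 2 tiles, which were picked from 3044 for their small p (adjusted p = 0.717 for both, quasi-binomial model).

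An exception is a tile at 5% or more in a library with at least 20 reads there. There were 336 among 63924 tile values (0.526%), in 303 tiles: 273 tiles had 1, 27 had 2 and 3 had 3. The pooled limit of 1% leaves little room for such values. That they were few, and mostly 1 per tile, therefore follows largely from the rule. Exceptions were not counted in other classes of tiles. Only 17 reached 10%. Tiles of 2 to 7 CpGs held 225 of the exceptions (67.0%). Of the set itself, 10.5% had 2 or 3 CpGs and 24.7% had 4 to 7. An exception rested on a median of 119.5 reads, against 697 for all values. Counted anew without leading cytosines, exceptions by the same definition numbered 291, which need not all be among the 336.

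The highest exceptions were single libraries at small tiles. The highest was 20.7% in lesioned saline replicate 8 at chr1:195656251-195656500 (3 CpGs, 6 of 29 reads), where the other 20 libraries had a median of 0 and a maximum of 2.22%. Unlesioned saline replicate 4 read 17.9% at chr20:52261251-52261500 (14 of 78 reads, others up to 2.99%) and 17.9% at chr14:84250251-84250500 (5 of 28, others up to 2.27%). L-DOPA replicate 2 read 13.2% at chr1:216673251-216673500 (17 of 129, others up to 1.61%) and 11.6% at chr18:28429251-28429500 (15 of 129, others up to 1.79%). Lesioned saline replicates 2, 3 and 6 read 12.5% at chr17:57827251-57827500 (6 of 48), 11.8% at chr4:34099001-34099250 (6 of 51) and 11.7% at chr10:35474501-35474750 (11 of 94), with the other libraries up to 2.17%, 3.81% and 4.37%. At none of these 8 tiles did a further library reach 5%.

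In the library of the exception, each of these 8 tiles was read on 1 strand only, the plus strand at chromosome 18 and the minus strand at the others. Several of them had nearly equal counts at successive cytosines. At the chromosome 20 tile the 5 listed cytosines had 3, 3, 3, 2 and 3 reads with C out of 15 or 16, and at chr1:216673251-216673500 the 6 cytosines had 2 to 3 out of 20 to 22. At the chromosome 14 tile, by contrast, all 5 reads with C fell on 1 leading cytosine. Over all exceptions with at least 5 reads with C, 101 had reads on both strands, and in 50 of these (49.5%) every read with C was on 1 strand. Other values of the set with 5 to 20 reads with C and reads on both strands showed this in 22.9% of cases. Those had a median of 10 reads with C against 16, and were not matched for depth or for reads on each strand. The 2 shares therefore do not show a trait of exceptions. One molecule copied several times and several molecules cannot be told apart in these counts.

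The number of exceptions per library ran from 2 (L-DOPA replicate 3) to 48 (lesioned saline replicate 3). That library and unlesioned saline replicate 4, with 46, held 28.0% of all exceptions and had the lowest median reads per tile, 376.5 and 458. The other 19 libraries had at most 24. Unlesioned saline libraries had 6 to 46 (median 13, mean 17.0 ± 14.7, SD, n = 6), lesioned saline 9 to 48 (median 19.5, mean 21.1 ± 12.1, n = 8) and L-DOPA 2 to 20 (median 10, mean 9.29 ± 5.99, n = 7). The 3 ranges overlap. L-DOPA minus lesioned saline was −11.8 (SE 4.85, exact permutation p = 0.0196, adjusted over 3 comparisons 0.0587), which did not pass. It did pass in 4 of the 15 fits that left out 1 library. These were without lesioned saline replicate 1 or 6 (adjusted exact permutation p = 0.0472 each), without lesioned saline replicate 7 (adjusted 0.0245 by the same exact test) and without L-DOPA replicate 2 (adjusted 0.0270 by the same exact test). Without L-DOPA replicates 3 and 7 and unlesioned saline replicate 1 it was −9.5 (adjusted exact permutation p = 0.340). At the other limits it was smaller or larger and did not pass: −5.27 with at least 100 reads (adjusted exact permutation p = 0.303), −0.429 at 10% or more (0.951 by the same exact test) and −29 at 3% or more (0.251 by the same exact test). Without the 2 shallowest libraries it was −8.00 (adjusted exact permutation p = 0.0979), within series 1 −14.8 (exact permutation p = 0.107) and within series 2 −3.50 (exact permutation p = 0.467). Groups of 4 and 2 libraries, as in series 2, allow no exact p under 0.05. Lesioned minus unlesioned saline was 4.13 (SE 7.37, exact permutation p = 0.554, adjusted 0.554) and −4 within series 2. Without lesioned saline replicate 3 it was 0.286, and without unlesioned saline replicate 4 it was 9.93. L-DOPA minus unlesioned saline was −7.71 (SE 6.41, exact permutation p = 0.241, adjusted 0.361), −7.50 within series 2 and −1.91 without unlesioned saline replicate 4. The pooled limit weights libraries by their reads. A value of 5% or more in a deeper library is therefore likelier to lift its tile out of the set. Median reads per tile averaged 789 in L-DOPA, 631.5 in lesioned saline and 757 in unlesioned saline libraries. The tests of these counts cannot separate group from depth, so no group difference is read from them. The part of read depth in these counts was not tested.

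**Figure D5:**
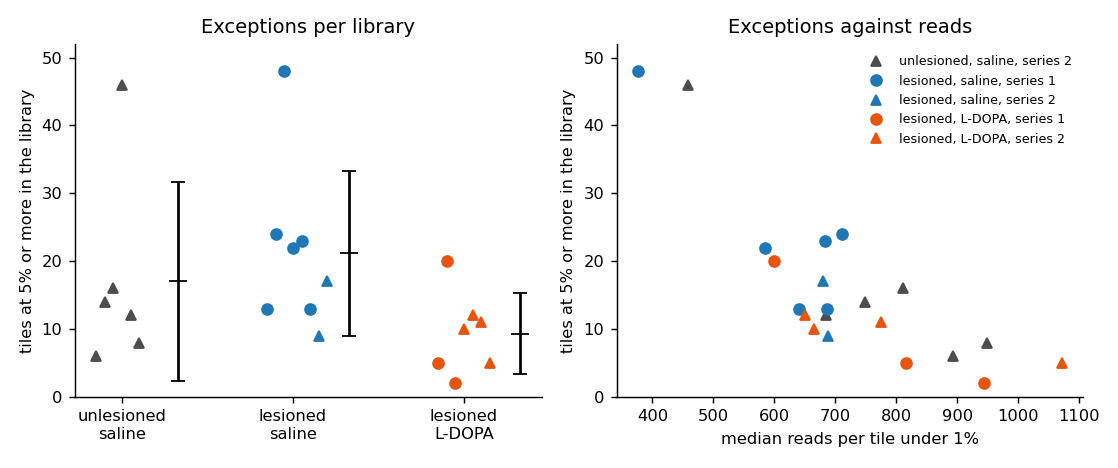
Tiles at 5% or more in each library, by group with mean and SD as bars (left) and against the library's median reads per tile of the set (right); colour marks the group and shape the library series. The 2 libraries above 40 exceptions, lesioned saline replicate 3 (48) and unlesioned saline replicate 4 (46), have the fewest reads per tile.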

How the data were processed

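The authors bisulfite-converted genomic DNA and sequenced single-end reads, which were trimmed, mapped to rn5, sorted and de-duplicated, per the design text of the series and the labels. Per the submitters' processing notes, methylKit 0.9.2 and SAMtools 0.1.19 were used, with Bismark 0.13.0, Trim Galore 0.3.7 and FastQC 0.10.1. Each deposited file gives, per CpG cytosine, the read count and the percent of reads showing C or T. Multiplied, they gave whole reads with C at 100% of the cytosines, within the rounding of the percent (0.005 points). Per library, 36.4% to 58.8% of the cytosines had more than 50 reads, which is more than 50-base reads can give on 1 strand once positional duplicates are removed, so copies may remain and counting errors may be too small.

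Both strands of a CpG were joined, and reads were summed over the CpGs of each 250 bp tile. Single tiles were tested with a quasi-binomial model and with limma 3.58.1 in R 4.3.3, fitted to all common tiles, with Benjamini-Hochberg adjustment at 0.05. Levels and exceptions per library were compared by exact permutation. Correlations used 100000 permutations. Python 3.11.15, NumPy 2.4.6 and SciPy 1.17.1 were used. No library pair of 210 had identical tile counts.

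Named were the 8 highest exceptions with at least 5 reads with C, the 3 tiles with most CpGs, the 3 deepest at the lowest level, 3 on each side of 1%, the 3 longest runs, the 5 highest CpGs, the tile of smallest p per comparison and direction, and 3 with the fewest zeros. The members and lists were chosen with earlier results of these data known. Alternatives concerned coverage, strand, weights, the limit, library series and single libraries. Leaving out leading cytosines or the 2 shallowest libraries was added after the data were seen. The labels do not say whether replicate numbers pair libraries, and the main tests did not pair them. Same-numbered libraries correlated at −0.0288 to 0.0416 across tiles, after removal of group means, and differently numbered ones at −0.0605 to 0.0532. Tiles chosen for levels near 0 leave little room for such a correlation, so these values cannot decide whether the numbers mark pairs.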

Additional observations from a re-analysis of the deposited data

Results flagged for a closer look

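Values were compared within 1 group for 7 quantities per library and 29 named tiles, where they were not all equal. Of these 97 sets, 30 held a library far from the rest of its group. A rate of 1 in 20 would give about 4.85, but that figure does not apply to many of these sets. At several tiles all other libraries of the group had no read with C, so any read with C set 1 library apart. Other tiles had been picked for a small p. Of the 30, 17 were at the 8 exceptions, which had been picked for a high library. No excess over chance is therefore read from the 30 sets.

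Unlesioned saline replicate 4 and lesioned saline replicate 3 stood out in several quantities, and had the fewest reads per tile. The former had 37.4% of the set at 0 (next library 16.1%) and 46 exceptions (next 16). The latter had 24.3% at 0 (next 18.96%), 48 exceptions (next 24) and a median of 376.5 reads per tile (next 585.5).

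At the exceptions, the high library named in the report stood apart in its own group: 20.7% and 12.5% on chromosomes 1 and 17, 17.9% on chromosome 20 at chr20:52261251-52261500 and 17.9% on chromosome 14, 13.2% and 11.6% in L-DOPA replicate 2, and 11.8% and 11.7% on chromosomes 4 and 10. In the other groups at these tiles, a single library with a few reads with C stood apart from values at or near 0. These were 2.22% and 2.13% at chr1:195656251-195656500, 2.99% and 1.72% at chr20:52261251-52261500, 1.89% at chr14:84250251-84250500, 1.61% and 2.17% at chr17:57827251-57827500, 1.41% at chr4:34099001-34099250 and 0.459% at chr10:35474501-35474750.

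Among the other named tiles, lesioned saline replicate 2 read 1.67% at chr8:71950501-71950750 and 1.91% at chr6:145338251-145338500. L-DOPA replicate 6 read 3.10% at chr3:97912251-97912500 (next 1.09%), and lesioned saline replicate 4 read 4.28% at chr4:183042501-183042750 (next 1.14%). L-DOPA replicate 4 read 1.42% at chr1:3778501-3778750, unlesioned saline replicate 2 read 0.483% at chr9:64696251-64696500, and L-DOPA replicate 7 read 1.95% at chr12:42562751-42563000. Unlesioned saline replicate 4 read 3.18% at chr6:144094751-144095000, where the next library of its group read 1.18%.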

How the results depend on the processing

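The level of the set passed no test under any alternative run. Its differences turned in sign with tiles under 2% (0.00182 points for L-DOPA minus lesioned saline, −0.0159 for lesioned minus unlesioned saline) and after subtracting the mitochondrial level (0.0374 for L-DOPA against unlesioned saline). That subtraction also gave 0.0652 for lesioned minus unlesioned saline (exact permutation p = 0.137, adjusted 0.411), the largest value of any setting for it. Tile calls in the set were 0 in every setting. Exceptions for lesioned against unlesioned saline were −0.0417 with at least 100 reads and −4 within series 2; for L-DOPA against lesioned saline, leaving out 1 library gave −13.6 to −8. The correlation with the read ratio was 0.0805 by ranks, 0.275 in series 1 and 0.164 without its 2 farthest libraries. That with the mitochondrial level was 0.664 in series 1, with only 9 libraries, and 0.445 without leading cytosines. Reads per cytosine gave a log2 ratio of 0.0699. The number of tiles was 15 with each library under 1% and 20840 without leading cytosines. The cause of these changes was not tested.

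The replicate block pairs libraries by replicate number, though the labels do not say that the numbers mark pairs. With it, exceptions differed by −12.4 for L-DOPA against lesioned saline (exact sign-flip permutation p = 0.0156, adjusted 0.0469). This value too cannot separate group from read depth. The level differed by −0.0401, 0.0163 and −0.0141 points in the order of the report. The block changed no other call. Depth limits single values: a tile of 29 reads moves by several points with 1 read.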
